A study of Mus musculus with 8 samples.

Results

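The collagen genes of mouse uterine stroma were examined in 8 RNA sequencing libraries, 4 from mice labelled Erbb3f/f and 4 from mice labelled Erbb3d/d. Members were taken by symbol, as every gene named Col, a number, a and a number, which gave 44 of the 23420 genes counted. They were divided by textbook structure into 11 fibrillar, 9 network-forming and 24 other collagens. All libraries came from uterine stromal cells labelled day 3, with no other agent, strain or age in the labels. In mouse genetics f usually stands for a floxed allele and d for its recombined form, but the labels name neither a Cre line nor the event from which the days are counted. Nothing in them says whether each library was 1 animal or a pool, so the p-values measure the spread between these libraries, which may be technical in part.

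Collagens are the main structural proteins of connective tissue. Each molecule is a trimer of chains wound into a helix, made from 1 gene product or several, and the chains are hydroxylated, trimmed and cross-linked on the way to the matrix. Fibrillar collagens form the cables of the stroma, network collagens the sheets of basement membranes, and the remaining families decorate fibrils, form beaded filaments, anchor epithelia or span the membrane. In the uterus this matrix is remodelled through the cycle and early pregnancy.

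Reads assigned to genes numbered 8578575 to 12854367 per library, and collagens took 1.69% to 3.32% of them. A normalised read count is given as CPM, counts per mega-read of a library scaled by edgeR's TMM method. A level set against that of another gene is given as CPM per kb of the principal transcript. Erbb3 itself did not have a lower level under the label Erbb3d/d (13.9 ± 4.55 CPM, against 9.63 ± 2.24 CPM under Erbb3f/f; SD, n = 4 each), so every direction here follows the labels only. All 12 stromal markers were measured. They summed to 7183 to 7957 CPM in Erbb3f/f and 6033 to 7410 CPM in Erbb3d/d, and 9 of the 12 had a log2 fold change below 0. Smooth muscle markers (12 genes) summed to 1883 to 3104 CPM in Erbb3f/f and 2991 to 6264 CPM in Erbb3d/d, and 11 of the 12 had a log2 fold change above 0. Epithelial markers (15 genes) summed to 994 to 1597 CPM and 1507 to 2499 CPM, and 13 of the 15 had a log2 fold change above 0. Of the 5 nerve sheath markers, Sox10 had no read in any library. These are bulk libraries, in which fewer cells of a type and less RNA per cell cannot be told apart.

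Type VI and the major fibrillar collagens dominated the collagen transcripts. The 3 collagens with most reads were Col6a2, Col6a1 and Col3a1, with 48.5% of all collagen reads over the 8 libraries, and the leading 10 held 90.3%. Per length, the order was Col6a2 at 1199 CPM per kb, Col6a1 at 1048, Col3a1 at 579.5, Col1a1 at 472, Col1a2 at 369, Col6a4 at 244, Col6a3 at 208 and Col18a1 at 169.8. Col15a1 (101 CPM per kb), Col4a2 (92.6), Col4a1 (82.6) and Col5a1 (72.3) followed. The ranges over libraries overlap widely at the top of this order: Col6a1 had 2758 to 6064 CPM and Col6a2 2593 to 6757 CPM. Within libraries, Col6a1 had fewer reads than Col6a2 in all but Erbb3d/d replicate 4. At the low end, 6 genes stayed under the filter on low counts and were not tested. These were Col17a1, with 132 reads in all libraries together (69 of them in Erbb3f/f replicate 4), Col28a1 with 40, Col10a1 with 19, Col2a1 and Col19a1 with 7 each, and Col9a1 with 1. Col2a1, Col9a1 and Col10a1 are best known from cartilage.

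**Figure D1:**
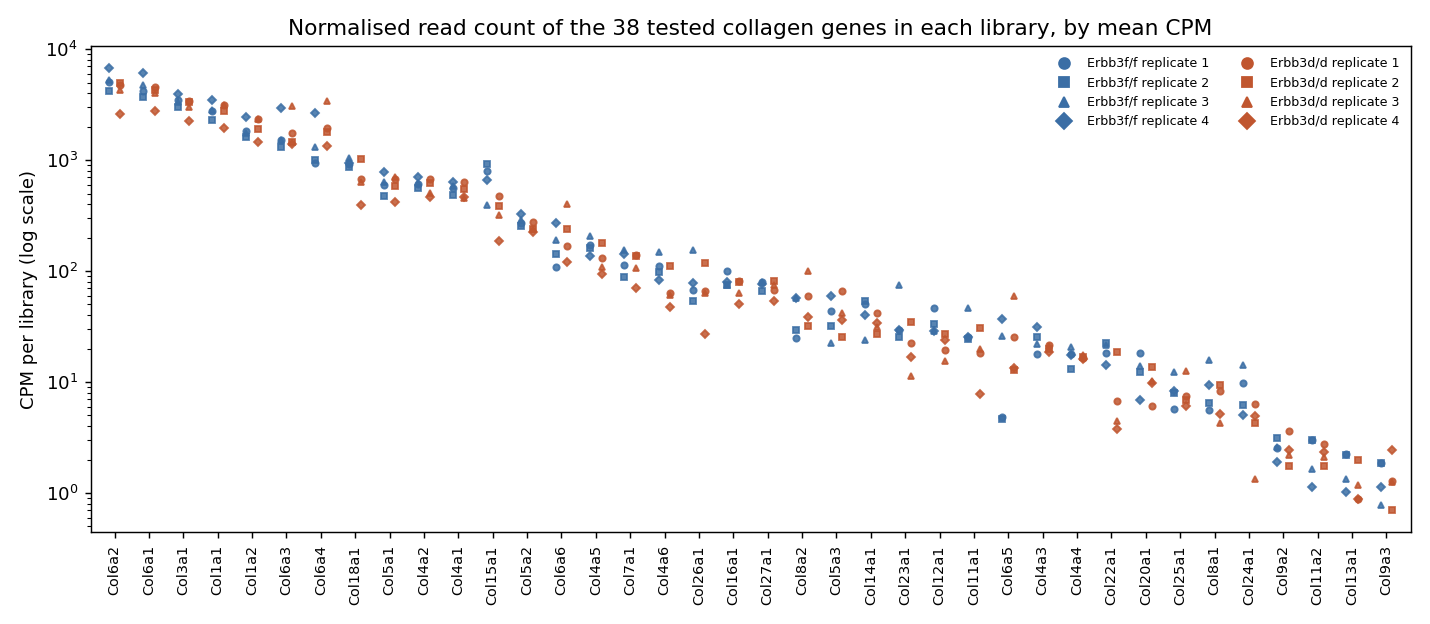
Normalised read count (CPM, log scale) of the 38 tested collagens in each library, ordered by mean CPM; blue points are Erbb3f/f, orange points Erbb3d/d, and the marker shape gives the replicate number. The genotypes overlap for every gene shown except Col12a1, and Col6a5 has the widest spread, from 4.60 to 59.7 CPM.

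The comparison between genotypes asked whether the collagen genes of the stroma differ between libraries labelled Erbb3f/f and Erbb3d/d. In the edgeR quasi-likelihood fit with Benjamini-Hochberg adjustment over 14598 genes, no collagen passed 0.05, and neither did any other gene (0%). The smallest adjusted p of a collagen was 0.304, for Col12a1. DESeq2 called 1 collagen, Col15a1, where it called 1.8% of the genes with an adjusted p. edgeR without Erbb3d/d replicate 2 called 2 others, Col22a1 and Col4a6, where it called 1.75% of all genes. That library lay among the Erbb3f/f libraries over all genes tested, not only in collagens. On the first principal component, the main axis of difference between libraries, it was at -18.2. The Erbb3f/f libraries were at -29.7 to -3.31 and the other Erbb3d/d libraries at 10.6 to 44.9. The cause of this position was not tested. For genes where that library lay nearer to Erbb3f/f than the other Erbb3d/d libraries did, leaving it out had to widen the difference. At an unadjusted p under 0.05, 5 of the 38 tested collagens were lower in Erbb3d/d and 0 higher, against 4.97% and 6.64% of all genes. The genotypes were fully apart for 1 collagen, which was lower, and for 0 that were higher, against 2.48% and 2.57% of all genes.

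The log2 fold change of Erbb3d/d over Erbb3f/f was below 0 for 29 of the 38 tested collagens, with a median of -0.21, while 52.0% of all genes lay below 0 with a median of -0.01. The median was -0.10 over 10 tested fibrillar collagens, -0.19 over 8 network collagens and -0.30 over 20 others. Counts over members that passed a filter are given as a description. The collagen median was -0.11 without Erbb3d/d replicate 4 and -0.13 without Erbb3f/f replicate 4. The first of these libraries held the lowest of the 8 values for 19 of the 38 genes, and the second the highest for 10, as did Erbb3f/f replicate 3. Stromal markers had a median log2 fold change of -0.30 (9 of 12 below 0), smooth muscle markers of 0.999 and epithelial markers of 0.64. The part of these cell types in the collagen values was not tested.

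**Figure D2:**
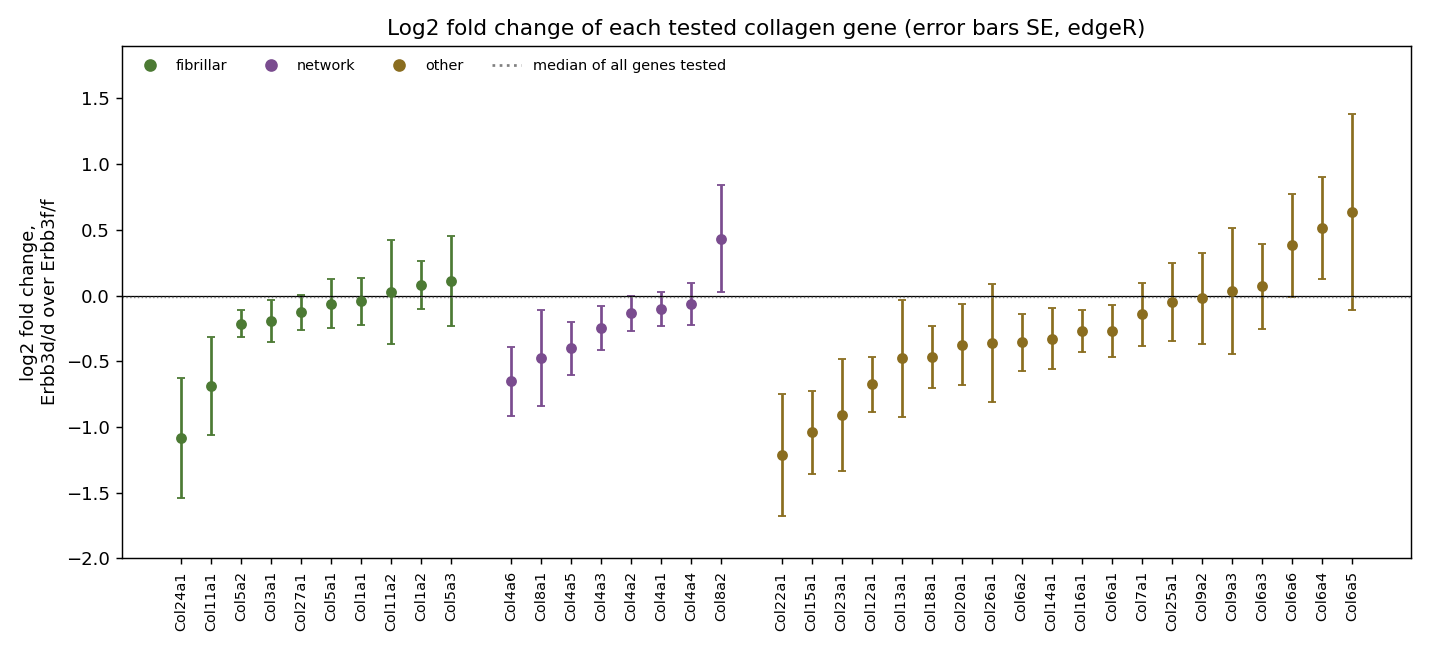
Log2 fold change of each tested collagen (Erbb3d/d over Erbb3f/f, edgeR) with its standard error as bars, grouped as fibrillar, network and other; the dotted line is the median of all genes tested, -0.01. Most points lie below 0, and the lowest are Col22a1, Col24a1 and Col15a1.

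Fibrillar collagens summed to 9116, 7765, 9023 and 11156.5 CPM in Erbb3f/f replicates 1 to 4 and to 10041, 9036, 9605 and 6401 CPM in Erbb3d/d replicates 1 to 4. The genotypes overlapped, and the highest and the lowest library were the replicates numbered 4. The means were 9265 ± 1403 and 8771 ± 1633 CPM (SD, n = 4 each), a ratio of 0.947, and the direction turned without either of those libraries (log2 ratio 0.02 without Erbb3f/f replicate 4 and 0.05 without Erbb3d/d replicate 4). Network collagens summed to 1524, 1379, 1679.9 and 1675 CPM in Erbb3f/f and to 1616, 1548, 1269 and 1156 CPM in Erbb3d/d, a ratio of 0.893. Erbb3d/d replicates 3 and 4 lay below every Erbb3f/f library, and replicates 1 and 2 among them. The remaining collagens summed to 14072, 12519, 15079.8 and 20825 CPM and to 14765, 14648, 16463 and 9040.0 CPM, a ratio of 0.879. The log2 ratio of network collagens was -0.16, and -0.08 without Erbb3d/d replicate 4. That of the remaining collagens was -0.19, and -0.02 without Erbb3f/f replicate 4 or -0.03 without Erbb3d/d replicate 4. As shares of collagen reads, the classes overlapped between genotypes: fibrillar collagens took 35.2% ± 1.58 and 36.9% ± 1.66, network collagens 6.01% ± 0.701 and 5.96% ± 0.967, and the remaining ones 58.8% ± 2.16 and 57.2% ± 2.52 (SD, n = 4 each).

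**Figure D3:**
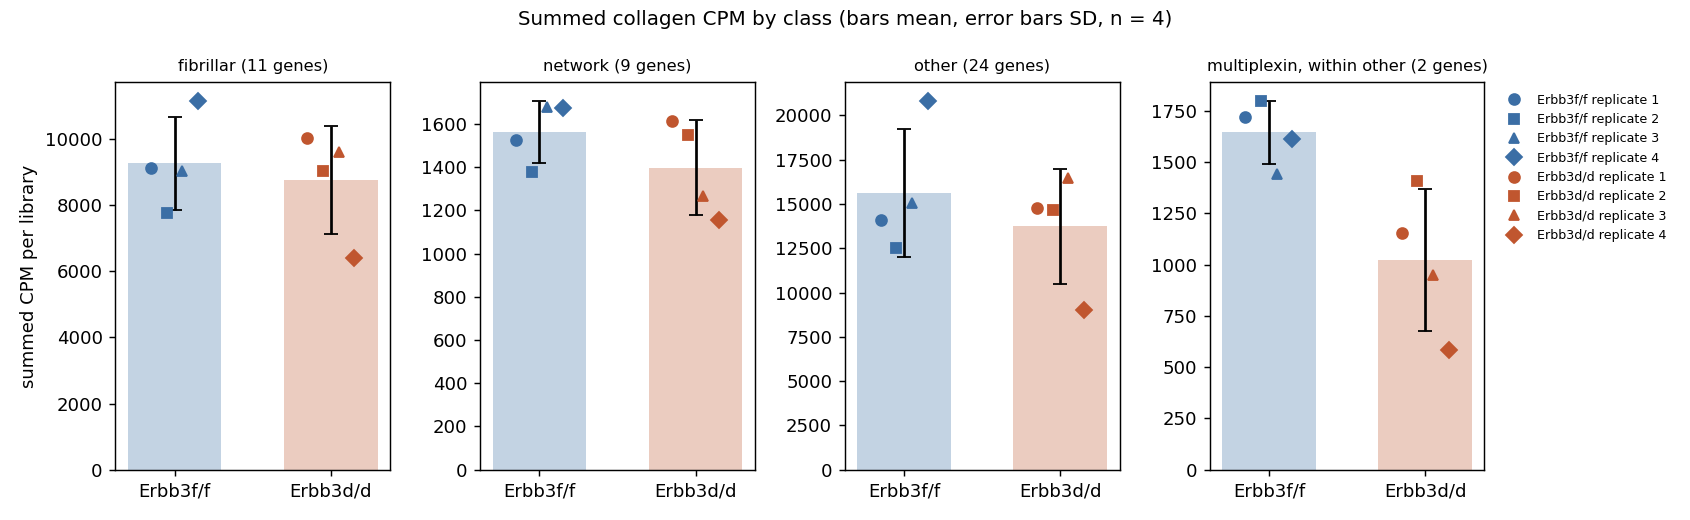
Summed CPM of each collagen class per library, with the multiplexins, which belong to the class called other, shown on their own; bars are means, error bars SD (n = 4), and points single libraries. Only the multiplexin panel shows no overlap between genotypes, with 1442 to 1799 CPM in Erbb3f/f and 585 to 1406 CPM in Erbb3d/d.

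Col1a1 and Col1a2 encode the chains of type I collagen, the main fibril of most connective tissue. Col1a1, on chromosome 11 at 94936224 to 94953042 (GRCm38, GENCODE vM21), had 2764, 2308, 2827 and 3472 CPM in Erbb3f/f replicates 1 to 4 and 3146, 2799, 3148 and 1940.0 CPM in Erbb3d/d replicates 1 to 4. Col1a2, on chromosome 6 at 4504814 to 4541544, had 1846, 1610.1, 1771 and 2437 CPM and 2354, 1926, 2364 and 1471 CPM in the same order. In both genes Erbb3f/f replicate 4 was highest and Erbb3d/d replicate 4 lowest. The other libraries overlapped for Col1a1, while for Col1a2 the other 3 Erbb3d/d libraries lay above the other 3 Erbb3f/f libraries. The log2 fold change was -0.04 (SE 0.18) for Col1a1 and 0.08 (SE 0.18) for Col1a2, with 95% intervals of -0.44 to 0.36 and -0.32 to 0.48 and adjusted p of 0.946 and 0.891 in edgeR's test. The sign for Col1a1 turned without either library numbered 4. The pair, on different chromosomes, kept a narrow proportion: Col1a1 had 1.32 to 1.60 reads for each read of Col1a2.

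Col3a1 encodes the type III chain, which co-assembles with type I in distensible tissue such as the uterus. It had 3478, 2989, 3331 and 3974 CPM in Erbb3f/f and 3425, 3348, 3006 and 2245 CPM in Erbb3d/d. Except for the last library the genotypes were intermixed, and the log2 fold change was -0.20 (SE 0.16; edgeR adjusted p = 0.664). Type V chains nucleate the fibrils. Col5a1 had 594, 471, 638 and 779 CPM and 675, 580.0, 705 and 416 CPM, and Col5a2 had 272, 255, 291 and 326 CPM and 279, 239.7, 242 and 225 CPM. Col5a2 was below every Erbb3f/f library in 3 of the 4 Erbb3d/d libraries. Its log2 fold change was -0.22 (SE 0.10), its interval -0.44 to 0.01 (edgeR adjusted p = 0.456, unadjusted 0.0621). That of Col5a1 was -0.06 (SE 0.19), and turned to 0.07 without Erbb3f/f replicate 4 and to 0.08 without Erbb3d/d replicate 4. Col5a3 was scarcer, with 43.6, 32.0, 22.6 and 59.5 CPM in Erbb3f/f and 65.8, 25.4, 42.2 and 36.2 CPM in Erbb3d/d, which overlapped. It had a log2 fold change of 0.11 (SE 0.34; edgeR adjusted p = 0.924). The remaining tested fibrillar members had mean levels, Erbb3f/f first, of 2.21 and 2.25 CPM (Col11a2) and 30.4 and 19.0 CPM (Col11a1). Those of Col27a1 were 75.7 and 69.4 CPM, and those of Col24a1 8.84 and 4.21 CPM. Col11a1 had 46.1 CPM in Erbb3f/f replicate 3 and 24.5 to 25.5 CPM in the other Erbb3f/f libraries. The log2 fold change of Col11a1 was -0.69 (SE 0.37, edgeR adjusted p = 0.513), and -0.41 without that library.

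Col24a1, a minor fibrillar collagen known from developing bone, was the fifth of the 5 collagens lower at an unadjusted p under 0.05. It is given in full although it falls outside the naming rule, and was chosen after its values were seen. It had 9.83, 6.17, 14.3 and 5.08 CPM in Erbb3f/f and 6.28, 4.31, 1.34 and 4.91 CPM in Erbb3d/d, from 17 to 182 reads. Only 1 Erbb3d/d library exceeded any Erbb3f/f library. The log2 fold change was -1.09 (SE 0.46; edgeR adjusted p = 0.409, unadjusted 0.0389).

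Type IV collagen builds the basement membrane, and its chain genes lie in head-to-head pairs. On chromosome 8 the annotated starts of Col4a1 and Col4a2 are 21 bases apart on opposite strands, and on chromosome 1 those of Col4a3 and Col4a4 are 72 bases apart. On the X chromosome the starts of Col4a5 and Col4a6 are 1309 bases apart. The promoter windows of the pairs on chromosome 8 and the X chromosome are printed, as both genes of each pair had a window. They are from RefSeq (GRCm38.p6), each from 250 bases before to 50 after the start, 5′ to 3′ on the strand of the gene. Capitals mark the CCAAT box (CCAAT) and the GC box (GGGCGG) on either strand, and the TATA box (TATAAA), also searched on both strands, was in none of the 4 windows. The set used here held 38 windows for 35 of the 44 collagens and none for Col4a3, so the pair on chromosome 1 is not printed. Col4a1 lies at chr8:11312777-11313076 on the minus strand, Col4a2 at chr8:11312555-11312854 on the plus strand, Col4a5 at chrX:141475169-141475468 on the plus strand and Col4a6 at chrX:141474027-141474326 on the minus strand.
Col4a1: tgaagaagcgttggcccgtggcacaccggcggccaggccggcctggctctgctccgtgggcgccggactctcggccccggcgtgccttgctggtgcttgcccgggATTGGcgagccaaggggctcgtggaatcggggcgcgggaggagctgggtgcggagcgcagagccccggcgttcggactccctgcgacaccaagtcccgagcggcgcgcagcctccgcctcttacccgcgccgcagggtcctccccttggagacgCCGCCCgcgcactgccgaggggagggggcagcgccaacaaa
Col4a2: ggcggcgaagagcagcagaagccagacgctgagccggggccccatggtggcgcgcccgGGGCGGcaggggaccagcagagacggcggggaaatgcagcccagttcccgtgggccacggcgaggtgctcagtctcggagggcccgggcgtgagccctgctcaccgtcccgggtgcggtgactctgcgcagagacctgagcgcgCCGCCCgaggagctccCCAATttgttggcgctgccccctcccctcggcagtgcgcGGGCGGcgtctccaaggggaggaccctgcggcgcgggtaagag
Col4a5: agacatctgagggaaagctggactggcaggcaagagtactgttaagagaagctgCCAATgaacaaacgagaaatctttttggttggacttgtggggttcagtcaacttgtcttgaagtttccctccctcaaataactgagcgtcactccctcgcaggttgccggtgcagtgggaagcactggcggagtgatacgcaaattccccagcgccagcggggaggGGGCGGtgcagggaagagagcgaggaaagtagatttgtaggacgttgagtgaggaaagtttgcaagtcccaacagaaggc
Col4a6: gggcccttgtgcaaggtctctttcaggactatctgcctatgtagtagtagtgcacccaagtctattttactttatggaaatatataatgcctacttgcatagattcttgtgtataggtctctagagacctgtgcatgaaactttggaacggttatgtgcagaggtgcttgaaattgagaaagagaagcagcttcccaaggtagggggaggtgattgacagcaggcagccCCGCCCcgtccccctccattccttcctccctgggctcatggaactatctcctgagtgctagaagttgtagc

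The windows of Col4a1 and Col4a2 share 78 bases, read on opposite strands. A GC box was in 23 of the 38 collagen windows (60.5%) and in 35.7% of 32851 RefSeq windows of this length, where the median GC content was 59.8% and 52.7%. A CCAAT box was in 34.2% of collagen windows and 37.4% of all, and a TATA box in 13.2% and 13.6%. A match is a match of letters only.

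Col4a1 and Col4a2, the ubiquitous chains, kept the narrowest proportion of the chain pairs examined. Col4a1 had 563, 483, 579.6 and 637 CPM in Erbb3f/f and 633, 551, 457 and 468 CPM in Erbb3d/d. Col4a2 had 610, 560.2, 627 and 702 CPM and 681, 628, 500.4 and 467 CPM. In both, Erbb3d/d replicates 3 and 4 were the lowest of the 8 libraries and Erbb3d/d replicate 1 was the next highest after Erbb3f/f replicate 4. The ratio of their reads ran only from 0.862 in Erbb3f/f replicate 2 to 1.002 in Erbb3d/d replicate 4. The log2 fold changes were -0.10 (SE 0.13) and -0.13 (SE 0.13), at edgeR adjusted p of 0.797 and 0.737. The exons of the genes overlap by 22 bases, and without strand information reads there cannot be assigned to one of them.

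Col4a5 and Col4a6 encode the chains found together in basement membranes of smooth muscle and some epithelia. Col4a5 had 173, 162, 209 and 136 CPM in Erbb3f/f and 132, 180.5, 109 and 94.0 CPM in Erbb3d/d. Col4a6 had 112, 98.8, 147 and 83.9 CPM and 63.8, 110.5, 60.4 and 47.7 CPM. The libraries took nearly the same order for both genes: Erbb3f/f replicate 3 was highest, and 3 of the 4 Erbb3d/d libraries were below all Erbb3f/f libraries, while Erbb3d/d replicate 2 lay among the latter. For Col4a6 the log2 fold change was -0.65 (SE 0.26; edgeR adjusted p = 0.396, unadjusted 0.0348), and an exact permutation test gave p = 0.0857. Without Erbb3d/d replicate 2 it was -0.95, and edgeR's adjusted p was 0.0401. It was -0.48 without Erbb3f/f replicate 3 and -0.50 without Erbb3d/d replicate 4, at edgeR adjusted p of 0.541 and 0.764. For Col4a5 it was -0.40 (SE 0.20; edgeR adjusted p = 0.479). It was -0.60 without Erbb3d/d replicate 2 (edgeR adjusted p = 0.0768) and -0.27 without Erbb3d/d replicate 4 (edgeR adjusted p = 0.832). Col4a5 had 1.42 to 1.64 reads for each read of Col4a6 in Erbb3f/f and 1.63 to 2.07 in Erbb3d/d, with a single library of overlap. Summed smooth muscle markers had means of 2595 ± 604 CPM in the Erbb3f/f libraries against 4137 ± 1464 CPM in the others (SD, n = 4 each), and their part in the values of both chains was not tested.

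The pair on chromosome 1 did not keep its proportion. Col4a3 had 183, 243, 280 and 275 reads in Erbb3f/f and 219, 169, 267 and 215 in Erbb3d/d, and Col4a4 had 185, 126, 266 and 156 and 167, 144, 222 and 185. Reads of Col4a3 for each read of Col4a4 were 1.93 and 1.76 in Erbb3f/f replicates 2 and 4, and 0.989 to 1.31 in the other libraries. Col4a3 shares up to 289 exonic bases with C430014B12Rik on the other strand, and the libraries carry no strand, so its count is uncertain. Neither gene differed by more than the spread in edgeR's test (adjusted p = 0.600 and 0.909). Type VIII chains form hexagonal sheets beneath endothelia. Col8a2 had 25.2, 29.4, 57.7 and 57.6 CPM in Erbb3f/f and 59.1, 31.8, 99.5 and 38.6 CPM in Erbb3d/d, whereas Col8a1 had 5.64, 6.48, 15.8 and 9.37 CPM and 8.34, 9.32, 4.25 and 5.17 CPM. In Erbb3d/d replicate 3 the first was at its highest and the second at its lowest. The log2 fold change of Col8a1 was -0.48 (SE 0.37; edgeR adjusted p = 0.647).

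**Figure D4:**
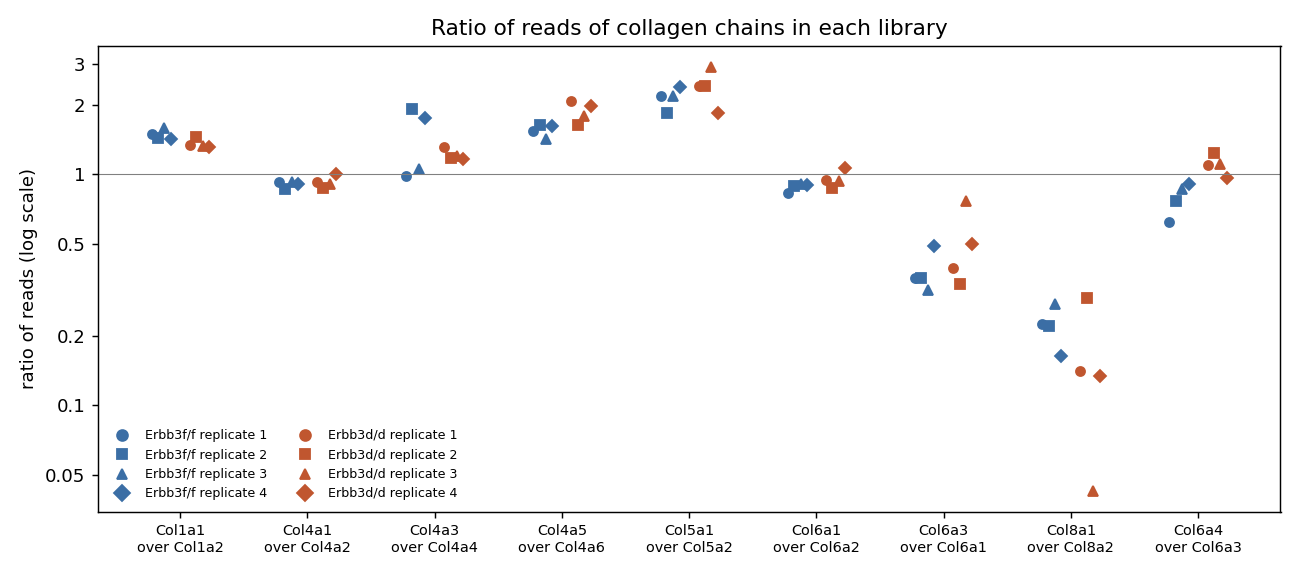
Reads of one collagen chain for each read of another in each library (log scale); blue points are Erbb3f/f, orange points Erbb3d/d, and the line marks a ratio of 1. Col4a1 over Col4a2 is the narrowest (0.862 to 1.002) and Col8a1 over Col8a2 the widest (0.0427 to 0.293), and the genotypes are apart only for Col6a4 over Col6a3.

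Type VI collagen forms beaded filaments around cells. Of the chains of its common form, Col6a1 and Col6a2 gave the most abundant collagen transcripts. Col6a1 had 4239, 3714, 4774 and 6064 CPM in Erbb3f/f and 4517, 4318, 3998 and 2758 CPM in Erbb3d/d. Col6a2 had 5087, 4156, 5257 and 6757 CPM and 4788, 4960.0, 4274 and 2593 CPM. These neighbours on chromosome 10, read from the same strand with starts 102538 bases apart, kept a ratio of 0.833 to 1.06. Their log2 fold changes were -0.27 (SE 0.20) and -0.36 (SE 0.22), at edgeR adjusted p of 0.619 and 0.551. Col6a3, on chromosome 1, did not follow them. It had 1512, 1317, 1514 and 2959 CPM in Erbb3f/f and 1770.4, 1444, 3068 and 1384 CPM in Erbb3d/d, so that 1 library of each genotype stood far above the other 3. Its reads for each read of Col6a1 ranged from 0.317 to 0.767.

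The alternative chains Col6a4, Col6a5 and Col6a6 lie side by side on chromosome 9, between 105687809 and 106096783, all on the minus strand. They are thought to take the place of the Col6a3 chain in the trimer. Col6a4 had 939, 1006, 1310.0 and 2679 CPM in Erbb3f/f and 1945, 1795, 3389 and 1335 CPM in Erbb3d/d. Col6a6 had 108, 141, 192 and 274 CPM and 167, 242, 401 and 121 CPM. Col6a5 had 4.87, 4.60, 25.8 and 36.9 CPM and 25.5, 12.9, 59.7 and 13.3 CPM. All 3 were highest in Erbb3d/d replicate 3 and next highest in Erbb3f/f replicate 4, the libraries that were also high for Col6a3. These 3 genes and Col8a2 had the smallest p-values among collagens with a log2 fold change above 0, at 0.51 (Col6a4, SE 0.39), 0.38 (Col6a6, SE 0.39), 0.64 (Col6a5, SE 0.75) and 0.43 (Col8a2, SE 0.40). None was near the threshold in edgeR's test (adjusted p of 0.641 to 0.779). Without Erbb3d/d replicate 3 the values were 0.19 for Col6a4, -0.01 for Col6a6, -0.06 for Col6a5 and 0.03 for Col8a2. Without Erbb3f/f replicate 4 they were 0.96, 0.66, 1.23 and 0.61 in the same order. Relative to Col6a3, Col6a4 was higher in every Erbb3d/d library: 0.621, 0.764, 0.865 and 0.905 reads for each read of Col6a3 in Erbb3f/f, and 1.10, 1.24, 1.11 and 0.965 in Erbb3d/d. It was the 1 ratio of 11 examined without overlap, and no test was made of it. Among all single genes tested, 2.57% were fully apart and higher in Erbb3d/d, and 2.48% lower. The share among ratios of other genes was not examined. Col6a4 and Col6a6 share exonic bases with unnamed gene models on the other strand (up to 127 and 63), so that a part of their counts is uncertain.

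**Figure D5:**
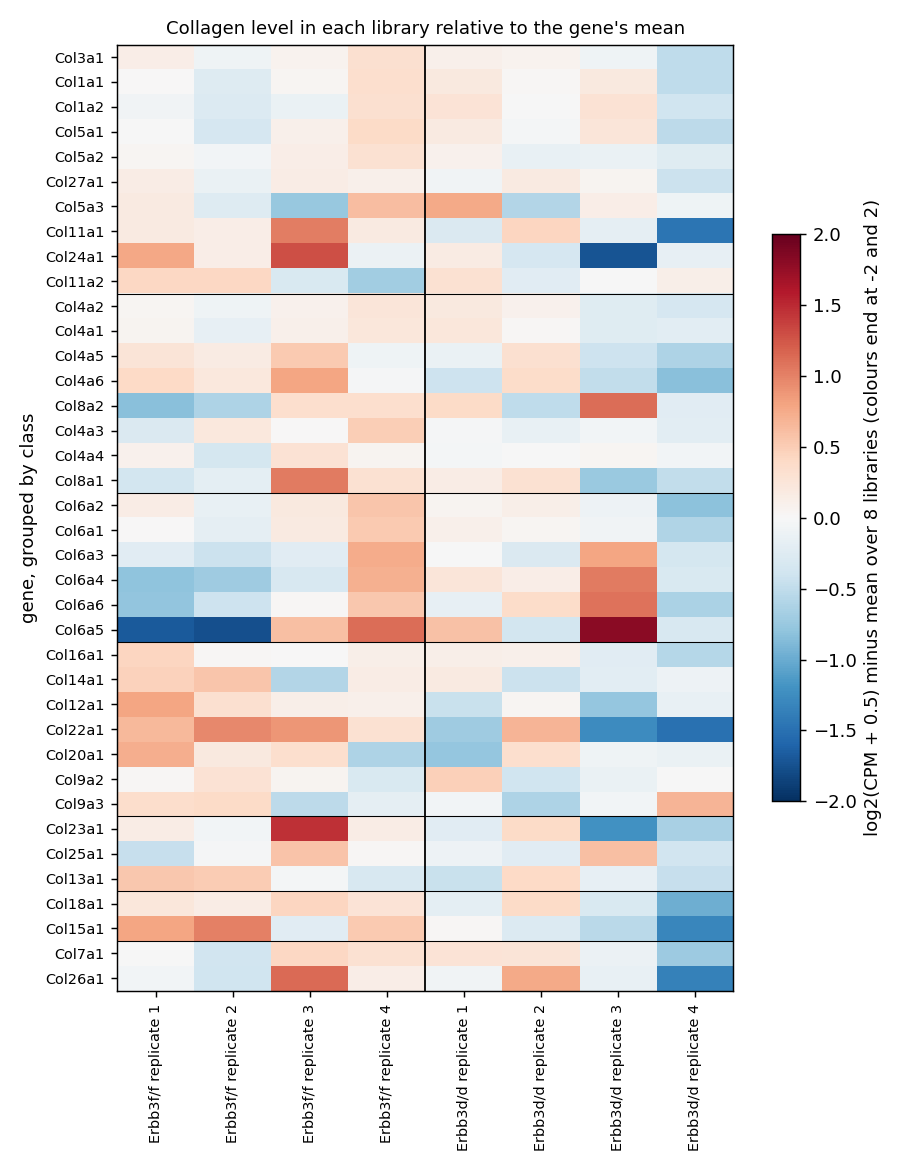
Level of each tested collagen in each library as log2(CPM + 0.5) minus the mean of that gene over the 8 libraries; red is above the mean, blue below, and horizontal lines part the classes. Erbb3d/d replicate 4 is blue for most genes (median -0.41), and Col6a4, Col6a5 and Col6a6 are highest in Erbb3d/d replicate 3.

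The multiplexins Col15a1 and Col18a1 sit at the outer face of basement membranes and are cut to release antiangiogenic fragments, endostatin in the case of Col18a1. Together they summed to 1722, 1799, 1442 and 1615 CPM in Erbb3f/f and to 1153, 1406, 949 and 585 CPM in Erbb3d/d. The sums did not overlap, the only class or family of collagens for which this was so, and the ratio of the means was 0.622. No test was made of the sum, and each gene overlapped between genotypes on its own. Among all single genes tested, 2.48% were fully apart and lower in Erbb3d/d. Col15a1, on chromosome 4 at 47208161 to 47313167, had 805, 932, 396 and 668 CPM in Erbb3f/f and 470.4, 384, 320.1 and 188 CPM in Erbb3d/d. All Erbb3d/d libraries but 1 were below the lowest Erbb3f/f library. The means were 700.3 ± 229 and 341 ± 119 CPM (SD, n = 4 each). This gave a log2 fold change of -1.04 (SE 0.32; edgeR adjusted p = 0.309, unadjusted 0.00928), against 0.0279 with DESeq2. An exact permutation test gave p = 0.0571. Leaving out single libraries moved the value between -1.23 and -0.84. Col18a1 had 917, 867, 1046 and 946 CPM and 683, 1022, 629 and 397 CPM, where Erbb3d/d replicate 2 lay with the Erbb3f/f libraries and the others below. Its log2 fold change was -0.47 (SE 0.23; edgeR adjusted p = 0.478). It was -0.73 without Erbb3d/d replicate 2 (edgeR adjusted p = 0.0629) and -0.28 without Erbb3d/d replicate 4 (edgeR adjusted p = 0.796). Endothelial markers (12 genes) summed to 587 ± 169 and 611 ± 158 CPM (SD, n = 4 each) and pericyte markers (6 genes) to 186 ± 96.7 and 174 ± 52.1 CPM. Cdh5 and Sox17 made up most of the endothelial sum, with means of 173 and 211 CPM over the libraries, against 7.66 to 53.9 CPM for the other markers. Whether their reads came from endothelial cells was not tested. Of the 12 endothelial markers, 11 had a log2 fold change above 0, with a median of 0.19. The part of endothelial cells and pericytes in the multiplexin values was not tested.

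Among collagens that associate with fibrils, Col12a1, which binds the surface of type I fibrils, was the only collagen whose genotypes did not overlap. It had 46.0, 33.3, 29.0 and 28.7 CPM in Erbb3f/f and 19.3, 27.4, 15.3 and 23.8 CPM in Erbb3d/d. Erbb3f/f replicate 4 and Erbb3d/d replicate 2, the nearest libraries, were 1.31 CPM apart. The means were 34.2 ± 8.14 and 21.5 ± 5.25 CPM (SD, n = 4 each), and the log2 fold change was -0.68 (SE 0.21; edgeR adjusted p = 0.304, unadjusted 0.00810). The exact permutation test gave 0.0286, the smallest p it can give with 4 libraries against 4. Any gene without overlap must get this value, so it adds nothing to the lack of overlap. Over all genes tested, 2.48% were fully apart and lower in Erbb3d/d. DESeq2 gave an adjusted p of 0.101. Col22a1, known from tissue junctions of muscle, had 18.3, 22.7, 21.6 and 14.2 CPM in Erbb3f/f and 6.77, 18.6, 4.49 and 3.77 CPM in Erbb3d/d. Erbb3d/d replicate 2 alone lay within the Erbb3f/f range. The log2 fold change was -1.21 (SE 0.46; edgeR adjusted p = 0.375), and without that library it was -1.94, and edgeR's adjusted p was 0.0134. Without Erbb3d/d replicate 4 it was -0.96 (edgeR adjusted p = 0.742). The other tested members of this family, Col14a1, Col16a1, Col20a1, Col9a2 and Col9a3, had log2 fold changes of -0.33, -0.27, -0.37, -0.02 and 0.04 and unadjusted p of 0.120 or more.

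The membrane-spanning collagens that were tested had log2 fold changes of -0.91 (Col23a1, SE 0.43), -0.48 (Col13a1, SE 0.45) and -0.05 (Col25a1, SE 0.30). Col23a1 rested on 1 library, Erbb3f/f replicate 3 at 74.6 CPM, with 25.7 to 29.6 CPM in the other Erbb3f/f libraries and 11.3 to 34.8 CPM in Erbb3d/d. Without that library its log2 fold change was -0.41. Col7a1, which forms the anchoring fibrils under epithelia, had 88.5 to 155 CPM in Erbb3f/f and 69.9 to 139.6 CPM in Erbb3d/d. Col26a1 had 53.4 to 154 CPM and 27.3 to 119 CPM.

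Libraries were next compared by the genes whose levels followed a collagen most closely. Over 14605 genes with a mean of at least 1 CPM, those with the highest Pearson correlation to Col1a1 on log2(CPM + 0.5) over the 8 libraries were Col5a1 (r = 0.988), Kdelr2 (0.980), Ppp6r1 (0.979), Sar1a (0.978) and Aph1a (0.973). Those closest to Col4a1 were Samm50 (r = 0.962), Col4a2 (0.950), Tm7sf3 (0.939), Baiap3 (0.939) and Serinc4 (0.929). With so many genes and 8 libraries these are descriptions, and all values of a library share its depth and scaling.

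The genes that make, fold, trim, link and bind collagen chains were read beside them, 44 genes in all, of which 41 were tested. None passed an adjusted p of 0.05 with edgeR, 14 had a log2 fold change above 0 and 27 below, and the median was -0.08. At an unadjusted p under 0.05, 4 were higher and 3 lower, where 6.64% and 4.97% of all genes were. The hydroxylases and their partners had 11 of 13 log2 fold changes below 0. P4ha2, a catalytic subunit of prolyl 4-hydroxylase, was the 1 gene of the 41 tested without overlap, and lower, where 2.48% of all genes were. It had 74.7, 56.2, 50.9 and 68.0 CPM in Erbb3f/f and 49.2, 43.8, 42.7 and 31.2 CPM in Erbb3d/d, with a log2 fold change of -0.58 (SE 0.16; edgeR adjusted p = 0.280). Of the 7 tested chaperones and secretion factors 6 were below 0, among them Serpinh1, the collagen-specific chaperone, at -0.29 (SE 0.15; 2483 ± 396 and 2036 ± 282 CPM, SD, n = 4 each).

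The remaining pathway genes with an unadjusted p under 0.05 are named after their values were seen. Crtap, a partner of prolyl 3-hydroxylase, had a log2 fold change of -0.43 (SE 0.17), and Adamts14, which trims the amino end of procollagen, one of -0.80 (SE 0.24). Pcolce2, an enhancer of trimming at the other end, had 0.94 (SE 0.41) at 1.13 to 5.87 CPM. The cross-linking enzymes Lox and Loxl4 had 0.57 (SE 0.22) and 1.30 (SE 0.43), and Itga11, a collagen-binding integrin of fibroblasts, 0.83 (SE 0.31). Their adjusted p in edgeR's test ran from 0.296 to 0.418. Lox was high in Erbb3d/d replicates 1 and 4 (169 and 177 CPM) and between 87.0 and 95.1 CPM in the other 6 libraries. The receptors Ddr2 and Itgb1, also chosen after their values were seen like Serpinh1, were at 550.4 and 549.9 CPM and at 538 and 543 CPM in Erbb3f/f and Erbb3d/d.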

How the data were processed

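Polyadenylated RNA from uterine stromal cells was sequenced as non-directional 150 bp pairs, per the labels' protocols. The authors deposited raw read counts per gene symbol, without normalization. The submitters' processing notes name HISAT2, SAMtools, HTSeq and StringTie and the builds mm10 and GRCm38, without versions or roles. Counting options are not given in the sources used here. The 5 lines of each table that name no gene held 70.9% to 73.0% of entries and stayed out of library sizes and tests.

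The counts went through edgeR 4.0.16 under R 4.3.3: filterByExpr (14598 genes kept), TMM scaling, glmQLFit with robust empirical Bayes and glmQLFTest on genotype, with Benjamini-Hochberg adjustment over all genes tested at 0.05. DESeq2 1.42.0 was an alternative. For single genes an exact permutation test, two-sided, was run on log2(CPM + 0.5) over 70 assignments. The scripts were tested on simulated data. Positions and lengths came from GENCODE vM21 (44 of 44 collagens matched); principal transcripts gave the lengths. No 2 libraries agreed within sampling noise.

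Members and gene lists were chosen with earlier results of these data known. Full values are given for the 10 collagens of highest mean CPM, those without overlap at 1 CPM or more, the 4 of smallest p in each direction and partner chains. Pathway genes are named where the genotypes do not overlap. Members of a class were summed without a test.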

Additional observations from a re-analysis of the deposited data

Results flagged for a closer look

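The spread of 4 libraries was examined in 56 cases, for the collagens of the naming rule and the sums of classes and of all collagens. In 1 case a single value lay apart, against 2.8 by chance at 1 in 20. Col6a3 had 2959 CPM in Erbb3f/f replicate 4, while the nearest Erbb3f/f library had 1514 CPM. Without that library its log2 fold change was 0.40 in place of 0.07. Other collagens, such as Col11a1 and Col23a1, were not examined in this way. In Erbb3f/f replicate 3, Col11a1 had 46.1 CPM and Col23a1 74.6 CPM. The other Erbb3f/f libraries had 24.5 to 25.5 CPM and 25.7 to 29.6 CPM of these genes.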

How the results depend on the processing

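The count of collagens called was 0 under RLE and upper quartile scaling, without the low-count filter, without the robust option and with the replicate block. It was 1 with DESeq2 and ran from 0 to 2 when libraries were left out in turn. Over all genes the calls were 262 with DESeq2 and 52 with the replicate block. When libraries were left out they were 259 without Erbb3d/d replicate 2 and 0 without any other. Same-numbered libraries deviated together with correlations of 0.241, 0.172, 0.0998 and 0.152. In 3 of 4 cases an Erbb3f/f library correlated best with its own number. The labels do not say whether equal numbers mark a pair, and these values do not settle it. The main fit had no replicate block, and the fit with it is given as an alternative. Of 532 log2 fold changes of single collagens over 14 alternatives, 27 turned direction, all by leaving out a library, and in 13 genes. Their ranges were -0.12 to 0.10 for Col1a1, -0.25 to 0.40 for Col6a3, -0.17 to 0.079 for Col5a1, -0.014 to 0.66 for Col6a6, -0.058 to 1.23 for Col6a5, -0.18 to 0.38 for Col5a3, -0.16 to 0.039 for Col4a4, -0.27 to 0.037 for Col7a1, -0.75 to 0.060 for Col26a1, -0.32 to 0.18 for Col25a1, -0.25 to 0.12 for Col9a2, -0.18 to 0.23 for Col11a2 and -0.36 to 0.25 for Col9a3. The cause was not tested. The log2 ratio of the multiplexin sums was -0.87 to -0.49 without single libraries. Depth limits the scarce members: 1 read was worth 0.0785 to 0.117 CPM.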
